A study of Mus musculus with 6 samples.

Results

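The RNA of 45 genes that act in the synaptic vesicle cycle was followed in the prefrontal cortex of mice with and without an intact *Pla2g4e* gene. The genes were chosen by name for their role in vesicle fusion, vesicle structure or vesicle recycling. The choice was made with earlier results of these data known, so counts set beside all genes are a description. All 45 were found among the 56923 genes of the count tables and among the 19084 genes that were tested. For this account they were sorted by function into 7 SNARE proteins and direct SNARE regulators, 10 calcium sensors, 10 active zone and priming proteins, 3 proteins of SNARE disassembly, 9 proteins of the vesicle membrane and vesicle cluster, and 6 proteins of endocytosis. The calcium sensor class includes relatives of the sensors that bind calcium poorly or not at all. RNA-seq was available for 3 libraries of *Pla2g4e* knockout mice (KO) and 3 libraries of wild-type mice (WT). The KO line was the constitutive C57BL/6N-A tm1Brd Pla2g4e tm2a line. It carries a LacZ gene trap in *Pla2g4e*, which should stop the gene from working throughout the body. The WT samples are given by genotype alone, no other treatment is named for either genotype, and no age is given for the mice that were sequenced. PLA2G4E is a calcium-dependent member of the cytosolic phospholipase A2 family that transfers acyl chains onto phosphatidylethanolamine. The labels do not say whether the 3 samples of a genotype came from 3 animals, so the p-values measure the spread between these samples, part of which may be technical.

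Neurotransmitter is released when a synaptic vesicle fuses with the presynaptic membrane. Vesicles are held in a cluster by synapsins, brought to the active zone by large scaffold proteins, primed there by Munc13 and RIM proteins, and fused by a SNARE complex of synaptobrevin, syntaxin and SNAP-25 once a synaptotagmin binds calcium. The used SNARE complex is then taken apart by NSF with its SNAP adaptors, and the vesicle membrane is recovered by dynamin, synaptojanin, endophilin and amphiphysin. In the cortex these genes are expressed mainly by neurons, and several families split between cell types, with SV2C for example known best from the striatum and other basal ganglia. In RNA from whole tissue, fewer neurons and less RNA per neuron cannot be told apart.

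The libraries held 11792463 to 14594230 fragments assigned to genes, and mitochondrial genes took 6.13% to 7.41% of them. *Pla2g4e* itself was at 5.95, 8.12 and 7.97 CPM (the gene's count relative to the TMM-scaled library total) in KO replicates 1 to 3 and at 7.84, 11.3 and 13.2 CPM in WT replicates 1 to 3. The log2 fold change was -0.55, with an unadjusted limma-voom p of 0.0205 and an adjusted p of 0.635. The ranges overlapped, KO replicates 2 and 3 being above WT replicate 1. The count is summed over all exons of the gene, and which exons the fragments came from was not analysed here, so it was not used as a check of the genotype labels. The excitatory neuron marker *Slc17a7*, the vesicular glutamate transporter of cortical pyramidal cells, was between 1161 and 1628 CPM in the 6 libraries, and all 10 excitatory neuron markers were detected. KO replicate 1 stood apart. The summed level of 10 olfactory bulb markers was 404 CPM there, against 156 and 111 CPM in the other KO libraries and 163, 81.2 and 122 CPM in WT replicates 1 to 3. KO replicate 1 and WT replicate 1 carried *Xist* at 1387 and 969 CPM, while the other 4 libraries carried Y-linked transcripts, so each genotype holds samples of at least 2 animals, and sex is balanced between the genotypes but not labelled. Medians of the functional classes, and values of the 45 genes that moved by over 1.5 times without KO replicate 1, are also given without it.

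Expression of the 45 genes spanned a wide range. Per kilobase of exon, *Snap25* had the highest mean at 390 CPM per kb and *Syn3* the lowest at 1.13 CPM per kb. *Vamp2* followed at 301, *Dnm1* at 264, *Cplx2* at 255, *Cplx1* at 241, *Syn1* at 240, *Syp* at 219 and *Syt1* at 192 CPM per kb. The syntaxin *Stx1a* was further down at 93.3 CPM per kb. Below *Snap25* (333 to 459), the ranges over the 6 libraries of neighbours in this list overlapped, from *Vamp2* (285 to 331) and *Dnm1* (237 to 316) to *Syp* (194 to 244) and *Syt1* (169 to 222 CPM per kb). Read within each library, *Vamp2* was above *Dnm1*, *Syn1* above *Syp* and *Syp* above *Syt1* in every library. The order of *Dnm1*, *Cplx2*, *Cplx1* and *Syn1* changed between libraries. Within families a single paralog carried most of the RNA in several cases. *Vamp2*, the main synaptobrevin of the forebrain, was at 301 and *Vamp1* at 9.34 CPM per kb, *Unc13a* was at 45.1, *Unc13b* at 5.25 and *Unc13c* at 3.77 CPM per kb, and *Syt1*, the fast calcium sensor of most forebrain synapses, was at 192 against 4.07 CPM per kb for its fast paralog *Syt2*. The plot of levels per kilobase shows that the ends of the order lie far further apart than the libraries of 1 gene, while neighbouring genes often overlap. The smallest count of any of the 45 genes in a library was 146 fragments, for *Syn3*, so each value rests on at least that many fragments. Exons of *Bsn* share 57 bases with another gene on the same strand, or 0.358% of its exon bases, and no other gene of the 45 shares any.

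**Figure D1:**
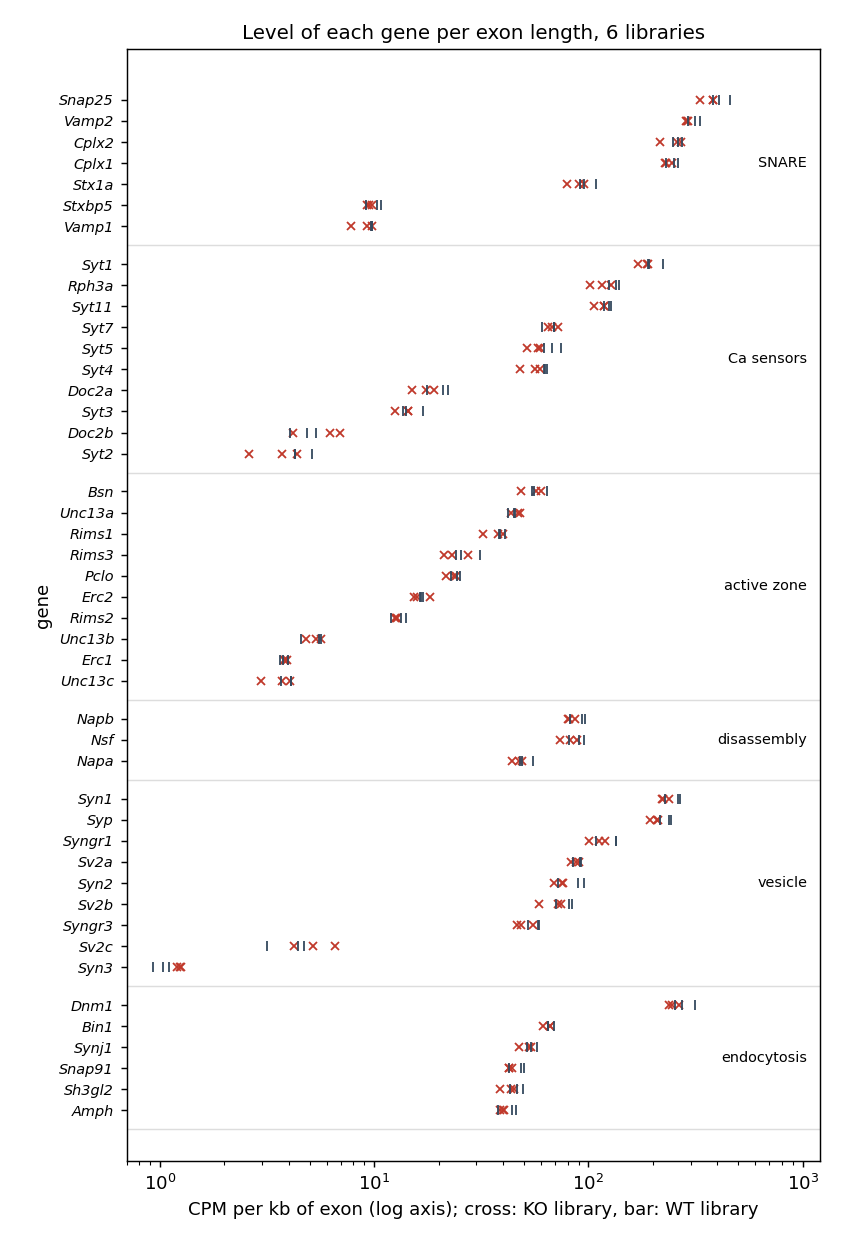
Expression level of the 45 genes in each library, in CPM per kilobase of exon on a log axis, with KO libraries as crosses and WT libraries as bars, grouped by function. *Snap25*, with a mean of 390 CPM per kb, and *Syn3*, with 1.13 CPM per kb, mark the ends of the order, and for most genes crosses and bars lie close together.

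The sequence upstream of the start site was read for the genes that a RefSeq promoter table of GRCm38.p6 holds, an assembly earlier than that of the counts. It matched 34 of the 45 genes in 43 windows of 250 bases. These windows had a median GC content of 61.2% and a median of 15 CpG dinucleotides, against 52.4% and 6 over all 32851 windows of the table. A GC box, searched as GGGCGG on both strands, was in 25 of the 43 windows (58.1%) and in 32.7% of all windows. The full cAMP response element TGACGTCA was in 2 windows (4.65%, *Syn1* and *Sh3gl2*) and in 1.55% of all windows, and the half-site TTCAGCACC of the RE1 element, which the neuronal repressor REST is known to bind, was in 1 window (2.33%, *Syn1*) and in 0.301% of all windows. None of the marked motifs overlaps another in the windows shown, and a match describes the letters only. Windows of 4 genes are shown because these genes stood in different places in the comparison below, *Syp* with WT libraries above all KO libraries, *Syn1* lower with overlapping groups, *Sv2c* higher and *Unc13a* nearly level. Capitals mark the motifs on either strand, and each window is written 5′ to 3′ on the strand of its gene. The positions are chrX:7638330-7638579 on the plus strand for *Syp*, chrX:20920919-20921168 on the minus strand for *Syn1*, chr13:96132578-96132827 on the minus strand for *Sv2c* and chr8:71671758-71672007 on the minus strand for *Unc13a*.
Syp: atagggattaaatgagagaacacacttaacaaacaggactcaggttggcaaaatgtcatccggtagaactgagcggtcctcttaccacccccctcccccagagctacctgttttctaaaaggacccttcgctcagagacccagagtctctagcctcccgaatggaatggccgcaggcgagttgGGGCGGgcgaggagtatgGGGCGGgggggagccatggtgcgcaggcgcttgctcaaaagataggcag
Syn1: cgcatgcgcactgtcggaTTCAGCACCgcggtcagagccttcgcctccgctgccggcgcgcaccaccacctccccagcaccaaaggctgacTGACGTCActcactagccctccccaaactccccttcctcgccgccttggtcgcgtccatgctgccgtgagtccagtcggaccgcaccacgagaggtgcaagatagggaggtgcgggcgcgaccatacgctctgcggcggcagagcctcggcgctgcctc
Sv2c: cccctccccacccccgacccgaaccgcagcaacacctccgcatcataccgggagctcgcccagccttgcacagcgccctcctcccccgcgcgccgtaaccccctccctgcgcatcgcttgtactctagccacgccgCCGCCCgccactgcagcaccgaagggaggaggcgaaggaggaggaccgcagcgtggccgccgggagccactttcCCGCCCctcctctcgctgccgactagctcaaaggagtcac
Unc13a: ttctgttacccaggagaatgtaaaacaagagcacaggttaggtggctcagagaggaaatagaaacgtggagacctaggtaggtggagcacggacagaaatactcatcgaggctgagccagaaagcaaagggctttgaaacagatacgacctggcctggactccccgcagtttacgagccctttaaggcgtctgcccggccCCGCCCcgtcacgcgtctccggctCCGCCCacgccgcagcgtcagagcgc
The *Syn1* window holds both the cAMP response element and the RE1 half-site and no GC box, while the other 3 windows hold 2 GC boxes each and neither of the other motifs. The *Syp* window has 11 CpG dinucleotides and the *Sv2c* window 26, and no difference between genotypes was read from the sequence.

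To ask whether the vesicle cycle genes differed between genotypes, each gene was compared in a limma-voom fit over all 19084 genes. No gene of the 45 passed the Benjamini-Hochberg adjusted threshold of 0.05, with adjusted p-values from 0.635 to 0.986, and the share of all genes that passed was 0%. In the same fit 38 of the 45 were lower in KO and 7 were higher, with a median log2 fold change of -0.12, or -7.87%. Over all genes tested 48.1% were lower and the median was 0.01. Under an unadjusted limma-voom p of 0.05 there were 9 genes lower in KO and 2 higher, where the shares over all genes were 3.44% and 4.38%. The count of higher genes was near this background and that of lower genes above it, with 2 limits. Among abundant genes (a mean of at least 256 CPM) 15.3% were lower at this threshold, as were 5 of the 25 abundant vesicle genes. Without KO replicate 1 only 2 of the 45 had such a p, in a fit that gave 4.44% of all genes. The KO and WT values of 3 genes did not overlap with KO lower (*Syt4*, *Syt5* and *Syp*) and those of 1 gene with KO higher (*Syn3*), and over all genes these shares were 6.29% and 6.72%, so non-overlap was no more frequent here than among genes at large. The differences were small in every functional class. The 7 genes higher in KO were *Syt7*, *Doc2b*, *Unc13a*, *Unc13b*, *Erc1*, *Syn3* and *Sv2c*, of which *Syt7*, *Unc13b* and *Erc1* turned when some single libraries were left out.

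**Figure D2:**
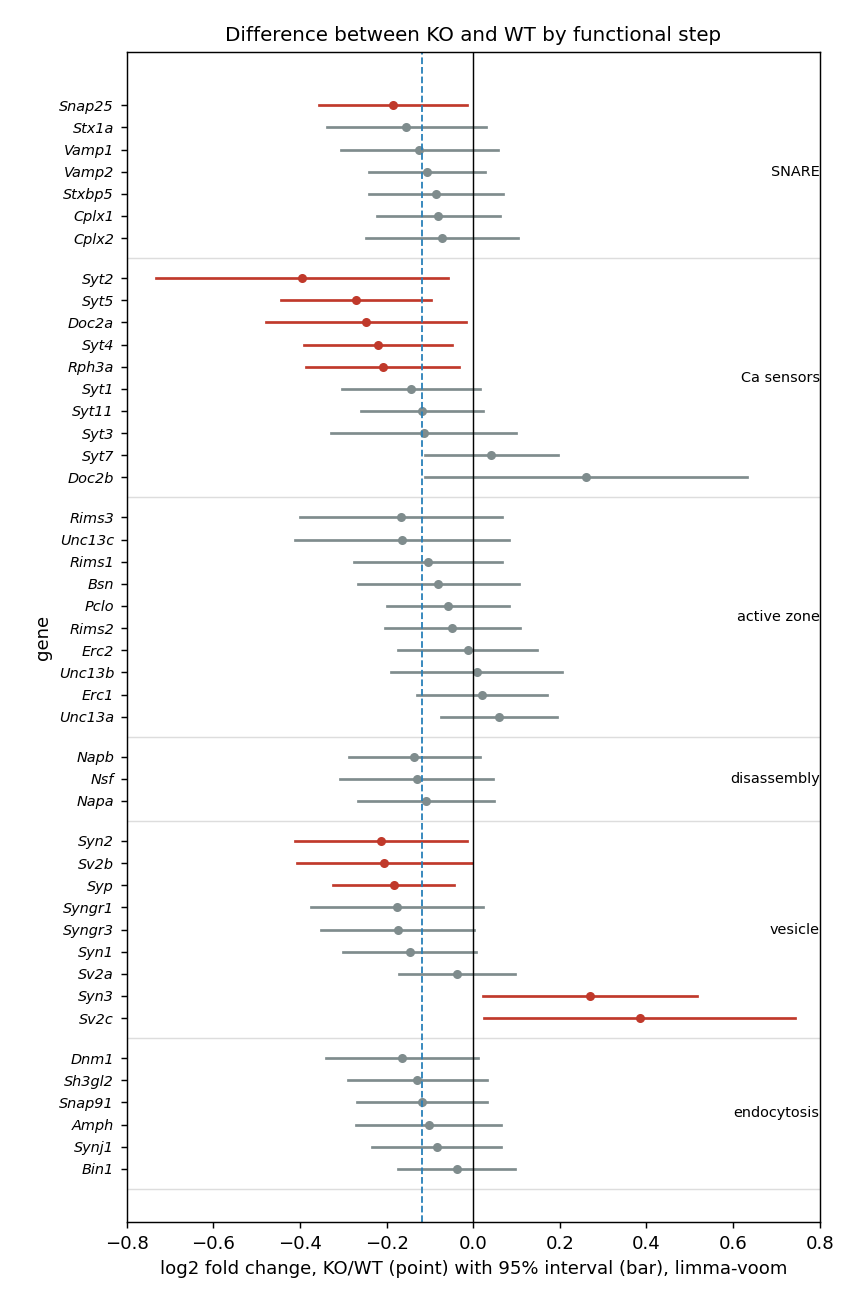
Log2 fold change (KO/WT, point) of the 45 genes with the 95% interval of the limma-voom fit (bar), grouped by function, with genes of unadjusted p under 0.05 in red and the median of the 45 genes as a dashed line. Points lie left of 0 for 38 genes, from -0.40 for *Syt2* to 0.38 for *Sv2c*, and 11 intervals leave out 0 before adjustment.

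The direction was carried unevenly by the libraries. Averaged over the 45 genes, the deviation from the mean of the 6 libraries was -0.13, -0.01 and -0.01 on the log2 scale in KO replicates 1 to 3 and 0.05, 0.11 and -0.02 in WT replicates 1 to 3. KO replicate 1 was the lowest library for 29 of the 45 genes and WT replicate 2 the highest for 27. WT replicate 3 lay within the range of the KO libraries for 31 of the 45 genes, WT replicate 1 for 17 and WT replicate 2 for 5. Without KO replicate 1 the median log2 fold change was -0.07 and 2 genes had an unadjusted limma-voom p under 0.05 (*Syt5* and *Syp*), in a fit that gave 4.44% of all genes. Without WT replicate 2 the median was also -0.07 and 3 genes did (*Syt4*, *Syt5* and *Syn3*), against 4.13% of all genes. Leaving out WT replicate 1 gave 7 such genes, against 5.38% of all genes. Leaving out WT replicate 3, the WT library most like KO, gave a median of -0.16 and 21 such genes, against 11.8% of all genes. The count of genes lower in KO stayed between 35 and 40 of 45 when any single library was left out. The size of the difference moved by over 1.5 times without KO replicate 1 for 27 of the 45 genes, without WT replicate 2 for 24 and without WT replicate 3 for 17. For those of the 27 whose values per library are not given further on, the log2 fold changes without KO replicate 1 follow here, beside those given with their class. They were -0.08 (*Stx1a*), -0.04 (*Syt3*), 0.08 (*Syt7*), -0.06 (*Syt11*), 0.10 (*Unc13a*), 0.07 (*Unc13b*), 0.04 (*Erc2*), -0.01 (*Pclo*), -0.06 (*Nsf*), -0.06 (*Napa*), -0.11 (*Syngr1*), -0.03 (*Synj1*) and -0.07 (*Sh3gl2*). The direction turned for 7 genes when 1 library was left out, each with a log2 fold change between -0.08 and 0.04 in the full comparison. They were *Cplx2* and *Bsn* (without KO replicate 1), *Erc2* (without KO replicate 1 or 3), *Syt7* (without KO replicate 3 or WT replicate 1), *Unc13b* (without KO replicate 2, KO replicate 3 or WT replicate 1), and *Rims2* and *Erc1* (without WT replicate 2).

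**Figure D3:**
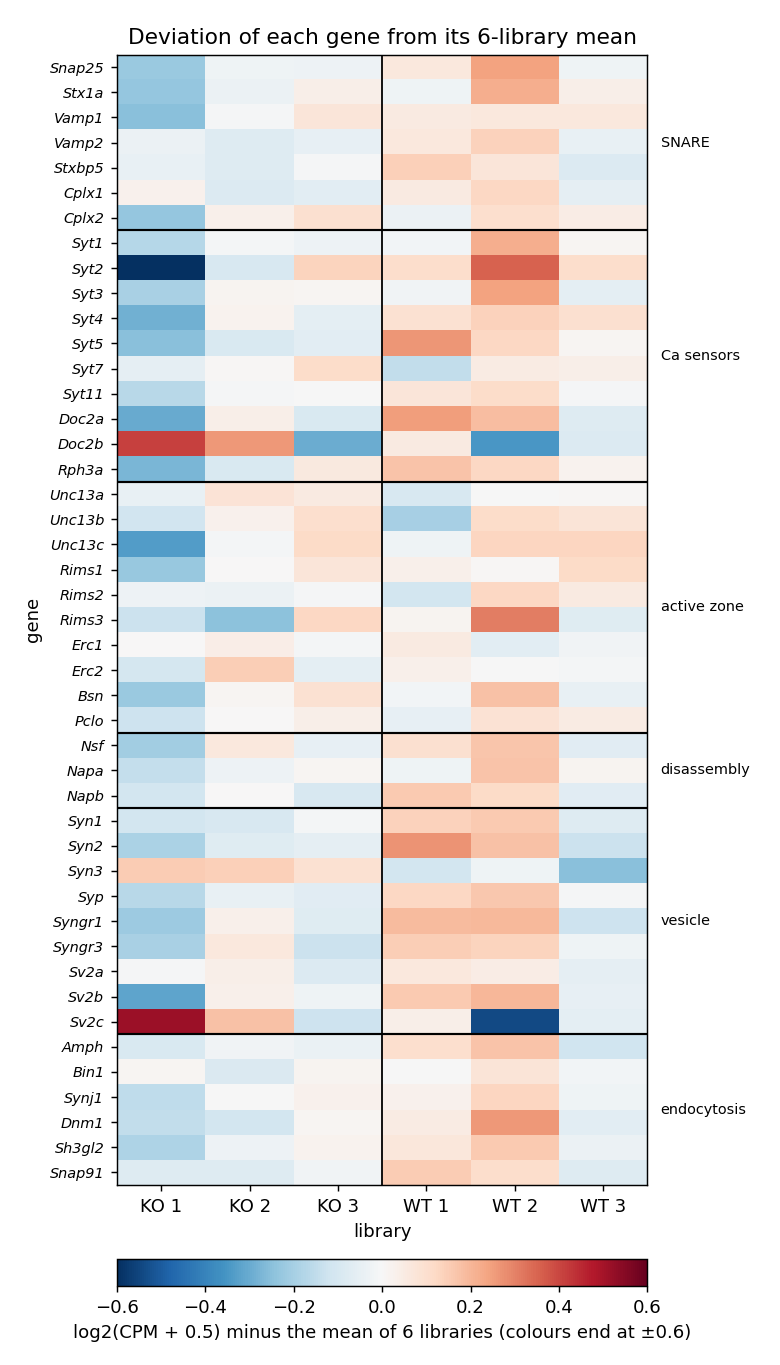
Deviation of each of the 45 genes in each library from the mean of the 6 libraries, in log2(CPM + 0.5), with rows grouped by function, blue below and red above the mean, and colours ending at 0.6 in either direction. KO replicate 1 is blue in most rows, being the lowest library for 29 genes, WT replicate 2 is red in most rows, being the highest for 27, and *Doc2b*, *Syn3* and *Sv2c* run against the other rows in KO replicate 1.

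Markers of some cell types moved along with these values. The mean log2 deviation of 12 general neuron markers, none of them among the 45 genes, was -0.13, -0.03 and 0.00 in KO replicates 1 to 3 and 0.04, 0.14 and -0.02 in WT replicates 1 to 3. Of the 12, 9 were lower in KO and 3 higher (*Map2*, *Snhg11* and *Meg3*). Their summed level was 15146 to 16381 CPM in KO and 14082 to 16172 CPM in WT, with WT replicate 1 the lowest. Without KO replicate 1, *Map2* was lower, at -0.04, and *Rbfox3* higher, at 0.04. The mean log2 deviation of 10 excitatory neuron markers was -0.25, -0.06 and 0.05 for KO, against 0.11, 0.15 and 0.01 for WT. Of these, 10 of 10 were lower in KO, 3 of them at an unadjusted limma-voom p under 0.05, against 3.44% of all genes. Without KO replicate 1, *Neurod2*, *Camk2a* and *Slc30a3* were higher, at 0.02, 0.03 and 0.01. The summed level of the 10 markers ranged from 6464 to 7723 CPM in KO and from 7250 to 7730 CPM in WT. Oligodendrocyte markers were higher in KO for 11 of 12 genes, with summed levels of 2374 to 2760 CPM in KO and 1843 to 3055 CPM in WT, and WT replicate 3 held the highest value. All 10 striatal markers and 9 of 10 olfactory bulb markers were also higher in KO. Astrocyte markers were higher in 12 of 12 genes at 5114 to 5706 CPM in KO and 4808 to 5624 CPM in WT. This count rested on single libraries. Without WT replicate 2, *Aqp4*, *Gfap*, *Slc1a2*, *Gja1*, *S100b* and *Fgfr3* were lower in KO. Without KO replicate 1, *Aqp4*, *Gfap*, *Aldh1l1*, *Gja1* and *Fgfr3* were lower. Interneuron markers split into 6 lower and 6 higher, and their summed level ranged from 971 to 1460 CPM in KO and from 944 to 1199 CPM in WT. Of the higher ones, *Gad2* and *Slc32a1* were lower without KO replicate 1, at -0.07 and -0.14. All KO values were below WT for 4 of the 12 and above WT for 1. Among the 4 was *Sst* at -0.50, with an unadjusted limma-voom p of 0.000114 and an adjusted p of 0.635. Microglial (7 of 12 lower, 461 to 497 CPM in KO and 432 to 540 CPM in WT) and endothelial markers (8 of 12 lower, 397 to 433 CPM in KO and 385 to 437 CPM in WT) had overlapping ranges. The part of cell composition in the values of the 45 genes was not tested.

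**Figure D4:**
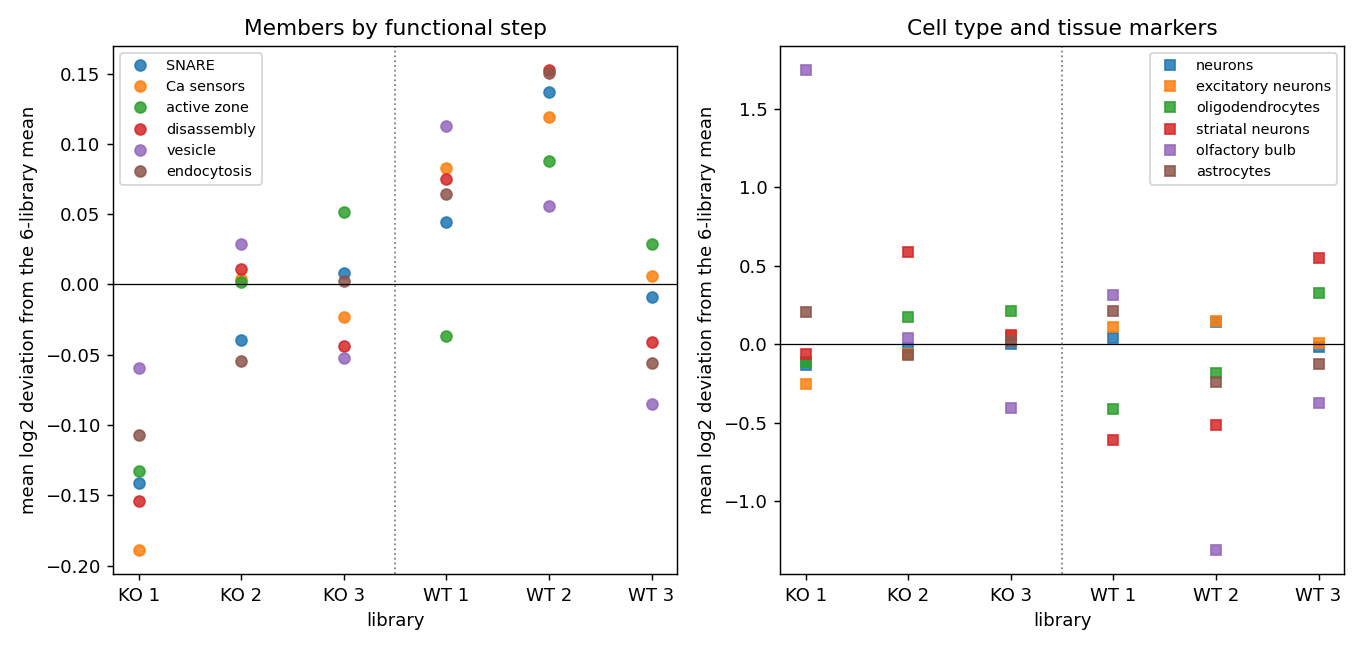
Mean log2 deviation from the mean of the 6 libraries, for the 45 genes by functional class (left) and for markers of cell types and neighbouring tissues (right), with 1 column per library and different vertical scales. In KO replicate 1 the 45 genes average -0.13 and the olfactory bulb markers 1.75, and in WT replicate 2 they average 0.11 and -1.31.

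Expression level also went with direction. The 648 tested genes with a mean of at least 256 CPM (8 on the log2 scale) were lower in KO in 72.1% of cases with a median log2 fold change of -0.07, and 15.3% of them were lower at an unadjusted limma-voom p under 0.05. Of the 45 vesicle genes 25 were this abundant. Among these, 23 were lower, 5 of them at that threshold, with a median of -0.12. Below 256 CPM, 47.3% of 18436 genes were lower with a median of 0.01, while 15 of 20 vesicle genes were lower with a median of -0.11. Without KO replicate 1, the abundant genes were lower in 67.1% of cases with a median of -0.04, and 21 of the 25 abundant vesicle genes were lower with a median of -0.09. The part of expression level in the direction of the 45 genes was not tested.

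All 7 SNARE proteins and SNARE regulators were lower in KO, with a median log2 fold change of -0.11, and without KO replicate 1 this was 6 of 7 and -0.08. The median was -0.07 without WT replicate 2 and -0.15 without WT replicate 3. *Snap25* encodes the plasma membrane SNARE that gives the complex a pair of its helices, and it is at chr2:136555373-136624348 (GRCm39). It was at 2263, 2589 and 2584 CPM in KO replicates 1 to 3 and at 2756, 3119 and 2589 CPM in WT replicates 1 to 3. KO replicate 1 was the lowest and WT replicate 2 the highest, while WT replicate 3 lay level with KO replicate 2. Its log2 fold change was -0.19 ± 0.08 (SE), an unadjusted limma-voom p of 0.0351 and an adjusted p of 0.635, and it was -0.12 without KO replicate 1 and -0.11 without WT replicate 2. *Stx1a*, the syntaxin of the presynaptic membrane, had a log2 fold change of -0.15 (95% interval -0.34 to 0.03). The vesicle SNAREs *Vamp2* and *Vamp1* had -0.11 (-0.24 to 0.03) and -0.12 (-0.31 to 0.06). *Vamp2* was at -0.06 without WT replicate 2, and *Vamp1* was at -0.03 without KO replicate 1 and at -0.19 without KO replicate 3. *Stxbp5*, which encodes tomosyn, a competitor of synaptobrevin for the SNARE complex, had -0.09. It was at -0.04 without WT replicate 1 and at -0.15 without WT replicate 3. The complexins *Cplx1* and *Cplx2*, which bind the assembled complex and hold it for the calcium signal, had -0.08 (-0.22 to 0.06) and -0.07 (-0.25 to 0.10). *Cplx1* was at -0.04 without WT replicate 2 and at -0.13 without WT replicate 3, and *Cplx2* was at 0.03 without KO replicate 1.

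Of the 10 genes of the calcium sensor class 8 were lower in KO, with a median of -0.18. At an unadjusted limma-voom p under 0.05, 5 were lower, against 3.44% of all genes. Without KO replicate 1 the median was -0.11, with 8 of 10 lower, and only *Syt5* of the class had such a p. Without WT replicate 2 only *Syt4* and *Syt5* did. These 2 fits gave 4.44% and 4.13% of all genes. *Syt5*, a synaptotagmin of neurons and dense-core vesicles at chr7:4542764-4550540, had the lowest p of the 45 genes. It was at 123, 138 and 141 CPM in KO and at 177, 160 and 148 CPM in WT. All 3 KO libraries were below all WT libraries, the nearest pair being KO replicate 3 and WT replicate 3. This amounts to a log2 fold change of -0.27 ± 0.08 (SE), an unadjusted limma-voom p of 0.00516 and an adjusted p of 0.635. When single libraries were left out it stayed between -0.34 and -0.21.

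*Syt4*, an activity-regulated synaptotagmin that binds calcium poorly, was at 186, 231 and 218 CPM in KO and at 242, 250 and 243 CPM in WT. The WT values were close together, and KO replicate 1 lay well below the other libraries. The log2 fold change was -0.22, and it was -0.13 without KO replicate 1. *Syt2*, the fast sensor of hindbrain synapses and of parvalbumin interneurons, was at 19.9, 28.4 and 33.4 CPM in KO and at 32.8, 39.0 and 32.7 CPM in WT. KO replicate 3 lay above 2 of the WT libraries. Its log2 fold change of -0.40 was the lowest of the 45 genes, and without KO replicate 1 it was -0.17. The 12 interneuron markers split into 6 lower and 6 higher in KO. *Pvalb*, the parvalbumin gene, was among the lower ones at -0.23, with all KO values below WT. Without KO replicate 1 it was at -0.15. All KO values were below WT for 4 of the 12 markers and above WT for 1, against 6.29% and 6.72% of all genes. The part of interneuron content in *Syt2* was not tested.

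*Doc2a*, a double C2 domain protein that acts in spontaneous and asynchronous release, was at 42.0, 53.1 and 48.7 CPM in KO and at 61.8, 59.0 and 49.2 CPM in WT. WT replicate 3 fell between KO replicates 2 and 3. Its log2 fold change was -0.25, and -0.15 without KO replicate 1. *Doc2b*, its paralog, was at 30.1, 27.1 and 18.3 CPM in KO and at 23.4, 17.6 and 21.3 CPM in WT. Here KO replicates 1 and 2 were the highest and KO replicate 3 was among the lowest, for a log2 fold change of 0.26 (95% interval -0.11 to 0.63), which was 0.10 without KO replicate 1 and 0.47 without KO replicate 3. Leaving out WT replicate 2 gave 0.15. *Rph3a* encodes rabphilin, a Rab3 effector with C2 domains, and was at 472, 535 and 593 CPM in KO and at 642, 622 and 579 CPM in WT. KO replicate 3 lay above WT replicate 3, the log2 fold change was -0.21, and it was -0.12 without KO replicate 1. *Syt1*, the most abundant sensor, was at 1413, 1580 and 1559 CPM in KO and at 1576, 1851 and 1605 CPM in WT. WT replicate 1 lay below KO replicate 2, and WT replicate 2 was the highest library. Its log2 fold change was -0.14 (-0.30 to 0.02), and it was -0.09 without KO replicate 1 and -0.07 without WT replicate 2. *Syt11*, a synaptotagmin that does not bind calcium, had -0.12, *Syt3*, a high-affinity calcium sensor, had -0.11, and *Syt7*, the slow high-affinity sensor of facilitation, had 0.04 (-0.11 to 0.20).

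Of the 10 active zone and priming genes 7 were lower, with a median log2 fold change of -0.05, and none had an unadjusted limma-voom p under 0.05. Without KO replicate 1 there were 5 lower and 5 higher, with a median of 0.00, and without WT replicate 1 there were 8 lower, with a median of -0.10. The median was -0.01 without WT replicate 2 and -0.08 without KO replicate 2. *Unc13a*, the main Munc13 priming factor of forebrain glutamate synapses, had 0.06 (95% interval -0.07 to 0.19), *Unc13b* had 0.01 (-0.19 to 0.21) and *Unc13c*, known best from the cerebellum, had -0.16 (-0.41 to 0.08), which was -0.02 without KO replicate 1. *Bsn* encodes bassoon, a giant scaffold of the active zone, and had the highest level per kb of this class at 56.6 CPM per kb. It was at 771, 905 and 958 CPM in KO and at 889, 1017 and 873 CPM in WT. The groups interleaved, and the log2 fold change of -0.08 became 0.01 without KO replicate 1. Its partner *Pclo*, which encodes piccolo, had -0.06. *Rims3*, a short RIM protein that binds calcium channel subunits, was at 184, 169 and 219 CPM in KO and at 203, 249 and 191 CPM in WT. Values of the groups interleaved for this gene as well, at a log2 fold change of -0.17 (-0.40 to 0.07), which was -0.05 without WT replicate 2 and -0.09 and -0.27 without KO replicates 2 and 3. The full-length RIM genes *Rims1* and *Rims2*, which link vesicles to calcium channels, had -0.10 (-0.28 to 0.07) and -0.05 (-0.20 to 0.11). *Rims1* was at -0.01 without KO replicate 1, and *Rims2* was at 0.00 without WT replicate 2. The ELKS scaffolds *Erc1* and *Erc2* had 0.02 (-0.13 to 0.17) and -0.01 (-0.17 to 0.15).

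In SNARE disassembly all 3 genes were lower, with a median of -0.13 that was -0.06 without KO replicate 1, -0.08 without WT replicate 2 and -0.20 without WT replicate 3. *Napb*, the brain form of the SNAP adaptor, had the lowest p and the highest level per kb of the class. It was at 565, 609 and 570 CPM in KO and at 678, 660 and 581 CPM in WT. KO replicate 2 lay above WT replicate 3, and the log2 fold change was -0.14 (95% interval -0.29 to 0.02). The ubiquitous form *Napa* had -0.11 and *Nsf*, the ATPase itself, had -0.13 (-0.31 to 0.05).

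The 9 genes of the vesicle membrane and vesicle cluster held 3 of the genes lower and both of the genes higher at an unadjusted limma-voom p under 0.05. The shares over all genes were 3.44% lower and 4.38% higher. Only *Syp* of the class had such a p without KO replicate 1, and only *Syn3* without WT replicate 2. In this class 7 of 9 were lower, with a median of -0.17 that was -0.11 without KO replicate 1 and -0.23 without WT replicate 3. *Syp*, at chrX:7504710-7519495, encodes synaptophysin, a tetraspan protein that is among the most abundant of the vesicle and partners with synaptobrevin. It was at 1013, 1104 and 1085 CPM in KO and at 1238, 1270 and 1130 CPM in WT. Every KO library was below every WT library, although KO replicate 2 and WT replicate 3 were near each other. Its difference was -0.18 ± 0.06 (SE) on the log2 scale, an unadjusted limma-voom p of 0.0143 and an adjusted p of 0.635, and it ranged from -0.24 to -0.15 when single libraries were left out. *Syngr1* and *Syngr3*, synaptogyrins of the same tetraspan fold, had -0.18 (-0.37 to 0.02) and -0.17 (-0.35 to 0.00).

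The synapsins, which tether vesicles to each other in the reserve cluster, did not share a direction. *Syn1*, at chrX:20726750-20787243, was at 730, 737 and 782 CPM in KO and at 867, 880 and 748 CPM in WT. WT replicate 3 lay within the KO range, and the log2 fold change was -0.15 (95% interval -0.30 to 0.01). *Syn2* was at 487, 527 and 535 CPM in KO and at 669, 628 and 508 CPM in WT. WT replicates 1 and 2 were clearly above the KO libraries and WT replicate 3 was not. Its log2 fold change was -0.21 (-0.41 to -0.02), and it was -0.13 without WT replicate 1 and -0.33 without WT replicate 3. *Syn3*, the scarce synapsin of developing neurons, at chr10:85890989-86334760, was at 15.3, 15.2 and 14.7 CPM in KO and at 12.7, 13.5 and 11.5 CPM in WT. The KO libraries were close together and all above WT. The difference was 0.27 ± 0.11 (SE) on the log2 scale, an unadjusted limma-voom p of 0.0351 and an adjusted p of 0.635, and it lay between 0.20 and 0.32 when single libraries were left out.

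The SV2 genes encode glycoproteins of the vesicle membrane with a transporter fold. *Sv2b*, the form of excitatory neurons, was at 491, 625 and 601 CPM in KO and at 682, 701 and 591 CPM in WT. KO replicate 1 was far below the rest, and the log2 fold change of -0.21 (95% interval -0.41 to -0.0035) was -0.10 without it. *Sv2c*, at chr13:96091102-96269085, was at 63.9, 50.4 and 40.9 CPM in KO and at 45.7, 30.5 and 42.9 CPM in WT. KO replicate 1 was the highest library and WT replicate 2 the lowest, and the groups overlapped. Its log2 fold change of 0.38 was the highest of the 45 genes, and it was 0.21 without KO replicate 1 and also 0.21 without WT replicate 2. The mean log2 deviation of 10 striatal markers came to -0.06, 0.59 and 0.06 for KO, against -0.61, -0.52 and 0.55 for WT, and that of the olfactory bulb markers to 1.75, 0.04 and -0.41 for KO, against 0.31, -1.31 and -0.38 for WT. The part of neighbouring tissue in *Sv2c* was not tested. *Sv2a*, the most widely expressed form, had -0.04 (-0.17 to 0.10), or -0.01 without KO replicate 3 and -0.08 without WT replicate 3.

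**Figure D5:**
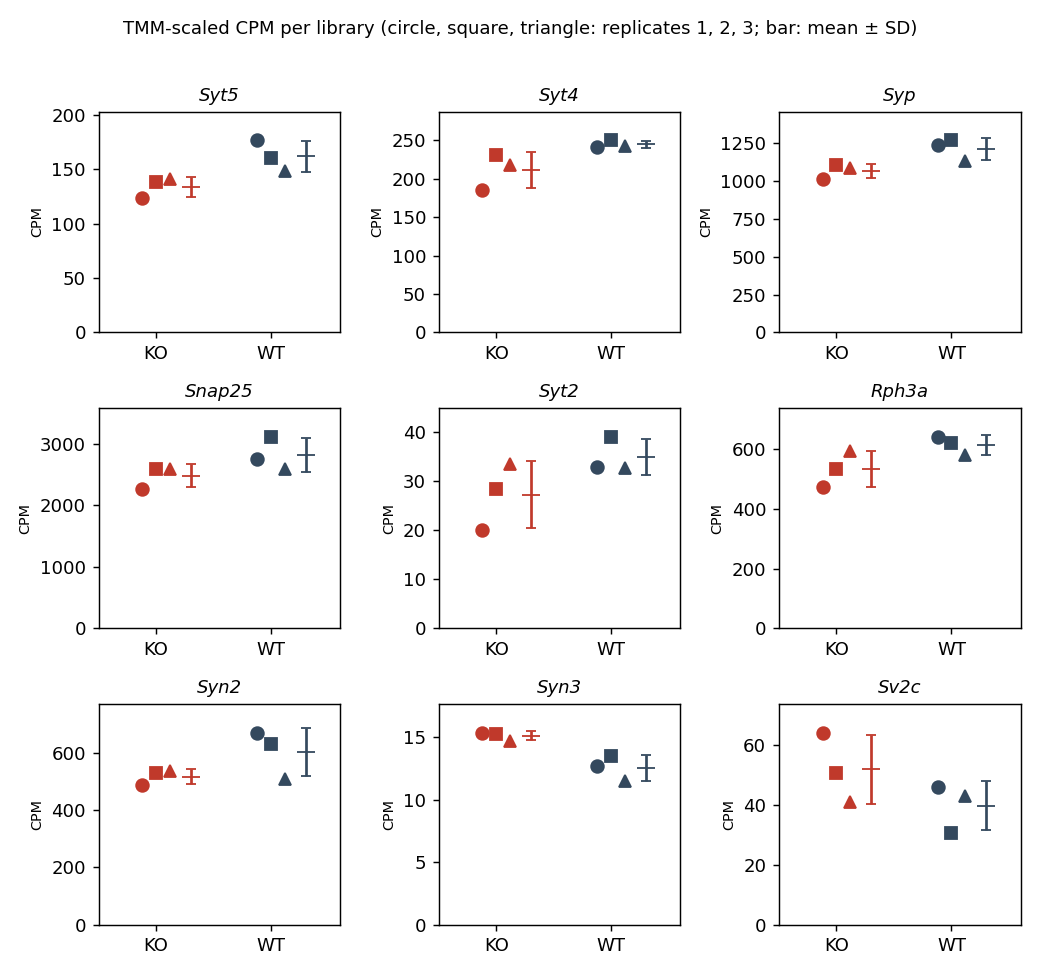
TMM-scaled CPM of 9 genes in each library (circle, square and triangle for replicates 1, 2 and 3) with the mean ± SD of 3 libraries at the right of each group and axes starting at 0. *Syt5*, *Syt4* and *Syp* have all KO libraries below all WT libraries, *Syn3* has them above, and the groups of the other 5 genes overlap.

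The 6 endocytosis genes were all lower in KO, with a median log2 fold change of -0.11 and no unadjusted limma-voom p under 0.05. The median was -0.07 without KO replicate 1, -0.06 without WT replicate 2 and -0.19 without WT replicate 3. *Dnm1*, the neuronal dynamin that cuts vesicles from the membrane, was at 1246, 1282 and 1394 CPM in KO and at 1428, 1657 and 1324 CPM in WT. WT replicate 3 lay below KO replicate 3, the log2 fold change was -0.16 (95% interval -0.34 to 0.01), and it was -0.07 without WT replicate 2. *Sh3gl2*, which encodes endophilin A1, had -0.13 (-0.29 to 0.03), and *Snap91*, which encodes the clathrin adaptor AP180, had -0.12 (-0.27 to 0.03). *Snap91* was at -0.07 without WT replicate 1 and at -0.19 without WT replicate 3. *Amph*, which encodes the membrane-bending protein amphiphysin, had -0.10 (-0.27 to 0.06), or -0.04 without WT replicate 2 and -0.19 without WT replicate 3, *Synj1*, the phosphoinositide phosphatase that uncoats vesicles, had -0.08 (-0.23 to 0.06), and *Bin1*, a ubiquitous relative of amphiphysin, had -0.04 (-0.17 to 0.10), or -0.01 without WT replicate 2.

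Ratios between paralogs do not depend on how libraries are scaled, so 17 of them were compared. The log2 ratio of *Syn3* to *Syn1* was -5.57, -5.60 and -5.74 in the KO libraries, against -6.09, -6.03 and -6.03 in those of WT. All KO values were above all WT values, with a difference of 0.41. The log2 ratio of *Unc13c* to *Unc13a* was -4.40, -4.20 and -4.05 in the KO libraries, against -4.04, -3.97 and -3.99 in those of WT. KO was lower throughout, with a difference of -0.22 that was -0.13 without KO replicate 1. For both ratios the exact two-sided permutation p was 0.1, the smallest that 3 against 3 libraries allow, and 0.85 after adjustment over the 17 ratios. The other 15 ratios overlapped between the groups. Among these were *Vamp1* to *Vamp2* (difference -0.01), *Cplx1* to *Cplx2* (-0.01), *Syngr3* to *Syngr1* (0.00) and *Pclo* to *Bsn* (0.02). These 4 were 0.09, -0.14, -0.01 and -0.02 without KO replicate 1, so the small values of the first 2 rest in part on that library. Wider ones were *Doc2b* to *Doc2a* (0.50) and *Sv2c* to *Sv2a* (0.42). Both of these were 0.26 without KO replicate 1, and they were 0.35 and 0.23 without WT replicate 2.

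Another 102 tested genes of the same steps, also listed with earlier results of these data known, were read from the same fit. Of these 70 were lower in KO with a median log2 fold change of -0.06. None passed the adjusted threshold. At an unadjusted limma-voom p under 0.05, 12 were lower and 3 higher, against 3.44% and 4.38% of all genes, so the count of higher genes was near the background. All KO values were below WT for 10 and above WT for 9, against 6.29% and 6.72% of all genes. The further vesicle membrane genes were lower in 14 of 17 cases with a median of -0.15, SNARE genes in 14 of 20 (-0.06), active zone genes in 15 of 22 (-0.04), endocytosis genes in 19 of 27 (-0.06) and disassembly genes in 4 of 4 (-0.11). Leaving KO replicate 1 out gave medians of -0.12, -0.03, -0.04, -0.03 and -0.09 in the same order, and that of the endocytosis genes was -0.01 without WT replicate 2. The further calcium sensors went the other way, with 8 of 12 higher and a median of 0.25, and their mean deviation was highest in KO replicate 1 at 0.25. Their median was 0.13 without KO replicate 1, with 11 of 12 higher, and without WT replicate 2 it was 0.10 with 9 of 12 higher.

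Of the genes lower in KO, *Snap47*, a SNAP-25 relative, was at 207, 231 and 227 CPM in KO and at 263, 273 and 238 CPM in WT. Its groups did not overlap and its log2 fold change was -0.22. *Atp6v1b2*, a subunit of the proton pump that acidifies vesicles, had -0.25 with overlapping groups, and *Rab3a*, the small GTPase of vesicles that rabphilin and RIM proteins bind, had -0.18 with KO below WT throughout. Among the genes higher in KO were *Syt14* at 0.27, a synaptotagmin that does not bind calcium, and *Baiap3* at 0.60, a relative of Munc13, both with KO above WT throughout, and *Dnm2*, the ubiquitous dynamin, at 0.19 with overlapping groups. Without KO replicate 1 *Baiap3* was at 0.36, *Dnm2* at 0.10 and *Syt14* at 0.26.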

How the data were processed

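Polyadenylated RNA was sequenced from 6 samples. Per the labels and methods, the authors aligned reads with STAR 2.7.9a. Per the file headers, they counted fragments per gene with featureCounts 1.6.0, paired and reverse-stranded, on GENCODE M31 (GRCm39), although the methods name an earlier assembly. The deposited values are raw counts, not pooled or normalized. The header names no option for fragments that map or overlap several times, so these were not counted. Exon length, also deposited, was used for levels per kb. Symbols matched 52073 of 56923 genes by identifier. As in the study's methods, genes with at least 6 fragments in at least 1 library were kept (19084 of 29943 with a fragment), and edgeR, voom and limma were used. Scaling was by TMM (edgeR 4.0.16), and tests with voom and limma 3.58.1 in R 4.3.3 were two-sided. Benjamini-Hochberg adjustment was over all genes at a threshold of 0.05, and no covariate was fitted. TMM, the threshold and the model were choices made here. Deviations are of log2(CPM + 0.5). Ratios were tested by exact permutation (scipy 1.17.1). The scripts were tested on simulated data.

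Library totals of 11792463 to 14594230 fragments bound the counting error only, which without molecular identifiers excludes amplification. The intervals and p-values of the limma-voom fit rest on the spread between the 3 libraries of each genotype. The members and lists were chosen with earlier results of these data known. Values per sample were given for genes with an unadjusted p under 0.05 or groups without overlap, and for the lowest p and highest level per kb of each class. *Doc2b* values, the split at 256 CPM and the 4 promoters shown were chosen after seeing values. Of the further pathway genes, 103 of 105 matched, and the 3 of lowest p in each direction with a mean of at least 1 CPM were named. In all 17 alternatives were run, with edgeR's quasi-likelihood test and DESeq2 1.42.0 among them. Protein sequences were not used here.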

Additional observations from a re-analysis of the deposited data

How the results depend on the processing

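In all 17 alternatives no gene of the 45 passed the adjusted threshold, and between 35 and 40 were lower in KO. Over all genes, DESeq2 gave 1 adjusted call and 902 unadjusted, and a term for sex as read from *Xist* gave 24 adjusted calls and 2030 unadjusted, 16 of the latter among the 45 genes. KO replicates 2 and 3 against WT replicates 2 and 3 gave 3 adjusted and 696 unadjusted calls, 1 of the 45 genes at an unadjusted p under 0.05 (*Sv2c*), 1 of the further pathway genes, and a median of -0.0205 for the latter. Without a filter beyond 1 fragment 18 of the 45 and 25 of the further genes had an unadjusted p under 0.05, against 7.06% of all genes in that fit. Scaling by library totals alone moved the median of the further genes to -0.0338. Leaving out single libraries gave 0 to 1 adjusted and 782 to 2239 unadjusted calls over all genes, 2 to 21 unadjusted calls among the 45, 5 to 32 among the further genes, and a log2 fold change of *Bsn* from -0.15 to 0.0114, the latter without KO replicate 1. *Syt5* had an unadjusted p under 0.05 in 16 of the 17. The cause of these shifts was not tested, except that fewer libraries enter some fits. With the replicate number as a block, 13 of the 45 and 1693 genes in all had an unadjusted p under 0.05 and 0 an adjusted one. The correlations of deviations between same-numbered libraries were 0.27, 0.06 and -0.02, so the rule for treating the numbers as pairs was not met, although both libraries numbered 1 carry *Xist*. With 3 libraries a group, the 95% interval of the difference left out 0 for 11 of the 45 genes, before adjustment.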
